A study of Mus musculus with 16 samples.

Results

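The 43 genes described here encode the cadherins and catenins of adherens junctions, proteins of desmosomes and tight junctions, and the complexes that set the apical and basal sides of an epithelial cell. They were listed by name, with earlier results of these data known, and 35 of them were found among the 15805 genes of the count table, 34 under their own names and Afdn, by its Ensembl identifier, under the older name Mllt4. The other 8, Cdh1, Epcam, Ocln, Cldn6, Cldn7, Cldn10, Tjp3 and Crb3, were not analysed here. RNA was sequenced from 16 primary explants of C57BL6 mouse epicardium, the outer cell layer of the heart, grown on a collagen gel and labelled as epicardial cells. The treated group, 8 explants, received blebbistatin, an inhibitor of myosin II, with which cells pull on their actin fibres. The control group, 8 explants, had none. The labelled dose is 20, with a unit that the labels write as both mM and mm, and the sources used here do not give the age of the mice, the length of treatment or any solvent in the controls. Nothing in the labels says whether explants came from separate hearts, so p-values measure the spread between these explants.

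Cells of an epithelium are held together by cadherins, which bind cadherins of the next cell and are tied inside the cell to actin by β-catenin and α-catenin. Tight junctions, built from claudins and related membrane proteins on scaffolds such as ZO-1, seal the space between cells, and the Par, Crumbs and Scribble complexes keep the apical and basal sides of the cell distinct. The epicardium is an epithelium that gives rise to mesenchymal cells, and in such a transition a cell takes its junctions apart, which is often read as a switch between cadherins.

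Total counts ran from 20176386 to 89620195 in treated and from 27065611 to 60321622 in control libraries. All 16 markers fixed for epicardium and mesothelium were in the table, among them the transcription factor genes Wt1 (42.7 to 81.6 CPM in treated and 54.3 to 103 CPM in control libraries) and Tbx18. Here CPM is a gene's count as a share of its library, scaled in the usual way and with TMM factors, which even out differences in library composition. As sums of unscaled CPM, epicardial and mesothelial markers ran from 1980 to 5730 in treated and from 2990 to 6940 in control libraries, and 11 of 11 fibroblast and mesenchyme markers from 9260 to 17600 and from 13700 to 19200. Cardiomyocyte markers (8 of 14 in the table) ran from 675 to 1240 and from 451 to 1020, macrophage and leukocyte markers (12 of 12) from 268 to 3830 and from 309 to 4590, and endothelial markers (6 of 12) from 33.7 to 89.5 and from 43.8 to 75.1. Markers of general epithelium (7 of 18) ran from 48.3 to 125 and from 76.9 to 165. The single marker of foregut and airway epithelium in the table, of 9, stayed at or below 2.07, that of red cells, of 7, at or below 6.60, and the 2 of Schwann cells and neurons, of 7, at or below 8.72. Mitochondrial genes took 16.8 to 25.5% of the counts with blebbistatin and 13.8 to 18.9% in controls.

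None of the 35 genes passed edgeR's quasi-likelihood test at an adjusted p under 0.05, against 0.606% of the 15675 genes tested. DESeq2 called 4 of them, Cdh13 higher and Cldn3, Pard6g and Msn lower, against 2.79% of the genes to which it gave an adjusted p. Limma voom called 0, against 0.721% of all genes. At an unadjusted p under 0.05 in edgeR there were 9 of 35, or 25.7%, against 12.2% of all genes. Of the 9, the 7 with lower values (20.0% of the 35, against 5.98% of all genes) were Cdh3, Cdh6, Cldn3, Cldn12, Pard6b, Pard6g and Msn. The 2 with higher values (5.71%, against 6.21%) were Cdh13 and Cgnl1. The log2 fold change was negative for 27 of 35 genes, 77.1%, against 45.9% of all genes, with a median of -0.15 against 0.04. For 0 of the 35 genes did the ranges of the groups not overlap, against 0.242% of all genes. That count of 27 was the same under 2 other scalings and without mitochondrial genes, and ran from 24 to 28 without single libraries. It was 21 with a cardiomyocyte covariate and 19 with an epicardial keratin covariate, both chosen after seeing the data. The cardiomyocyte covariate was mostly the level of Tnnt2, with medians of 853 CPM in treated and 458 CPM in control libraries. Whether that level follows the number of cardiomyocytes was not tested. In these bulk samples, fewer cells of a type and less RNA per cell cannot be told apart.

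**Figure D1:**
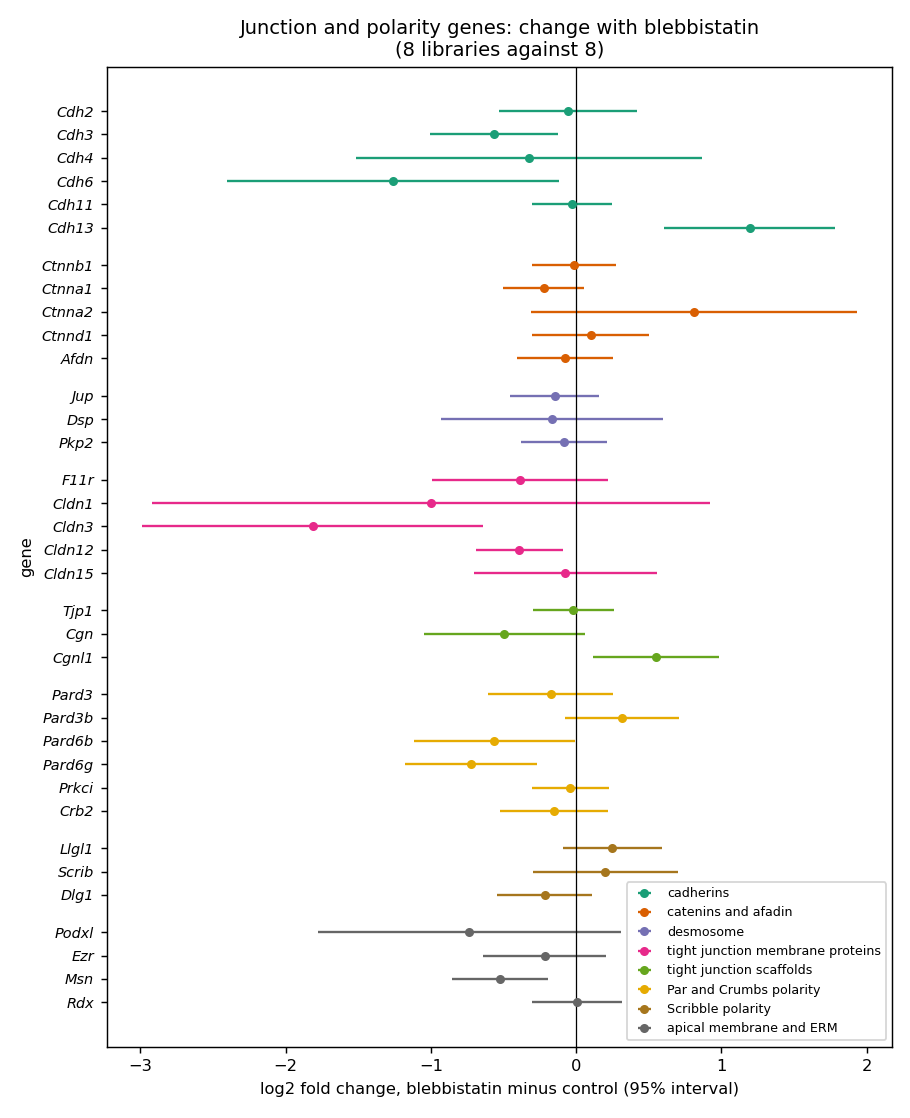
Log2 fold change with blebbistatin for each of the 35 genes, with its 95% interval from the edgeR fit, coloured by role. Cdh13 and Cgnl1 have intervals above 0, and Cdh3, Cdh6, Cldn3, Cldn12, Pard6b, Pard6g and Msn intervals below 0, without adjustment for the number of genes tested.

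For 2 of the genes that DESeq2 called lower, the 250 bases before the RefSeq start (build GRCm38.p6, plus strand, 5′ to 3′) are shown, since Cldn3 had the most negative log2 fold change of the 35 and Msn the highest level per length. Capitals mark an E-box, CANNTG, the site of basic helix-loop-helix factors, whose form CAGGTG is also bound by repressors of the Snail and Zeb families. CANNTG was searched as written, since its reverse complement is the same motif, and CAGGTG, which is contained in it, on both strands.
Cldn3, chr5:134985964-134986213: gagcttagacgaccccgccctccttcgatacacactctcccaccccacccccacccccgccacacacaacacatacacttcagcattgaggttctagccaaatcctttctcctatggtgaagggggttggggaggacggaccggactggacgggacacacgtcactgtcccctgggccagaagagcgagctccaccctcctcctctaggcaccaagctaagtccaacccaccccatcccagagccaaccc
Msn, chrX:96095795-96096044: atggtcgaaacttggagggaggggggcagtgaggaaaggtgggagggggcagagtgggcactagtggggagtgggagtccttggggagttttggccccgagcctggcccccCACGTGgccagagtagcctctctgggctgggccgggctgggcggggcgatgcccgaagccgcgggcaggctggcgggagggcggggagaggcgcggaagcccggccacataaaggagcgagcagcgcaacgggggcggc
The window of Cldn3 held 0 matches to CANNTG and that of Msn held 1, 139 bases before the start, while 66.2% of all 32851 windows of this length held at least 1. CAGGTG was in neither window and in 17.2% of all. Promoters were matched for 25 of the 35 genes, of which 14 held CANNTG and 4 held CAGGTG in at least 1 window. These matches describe letters and not sites that a factor binds.

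Among the cadherins, Cdh11 was the most abundant gene per length in either group. Levels per length were TMM-scaled CPM per kilobase of exons, with lengths from GENCODE M21. On that scale Cdh11, a cadherin of mesenchymal cells, stood at 96.8 ± 17.0 in controls and 95.1 ± 17.8 with blebbistatin (SD, n = 8 each). Cdh2, which encodes N-cadherin, stood at 27.0 ± 8.33 and 26.0 ± 10.3, and Cdh3, for P-cadherin of epithelia, at 13.8 ± 3.61 and 9.31 ± 3.25. Cdh13, for T-cadherin, which is held in the membrane by a lipid anchor and lacks the domain that binds catenins, stood at 1.86 ± 0.825 and 4.26 ± 1.89. Cdh6 and Cdh4, for K-cadherin and R-cadherin, were the least abundant at 0.312 ± 0.143 and 0.158 ± 0.0795 in controls. The order of control means was thus Cdh11, Cdh2, Cdh3, Cdh13, Cdh6 and Cdh4, and of neighbours in it the ranges over control libraries overlapped for Cdh2 and Cdh3 (15.2 to 41.2 and 8.63 to 18.7) and for Cdh6 and Cdh4 (0.150 to 0.613 and 0.0762 to 0.331). With the longest transcript in place of all exons, Cdh13 stood at 4.57 in controls, so its level per length depends on the gene model.

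**Figure D2:**
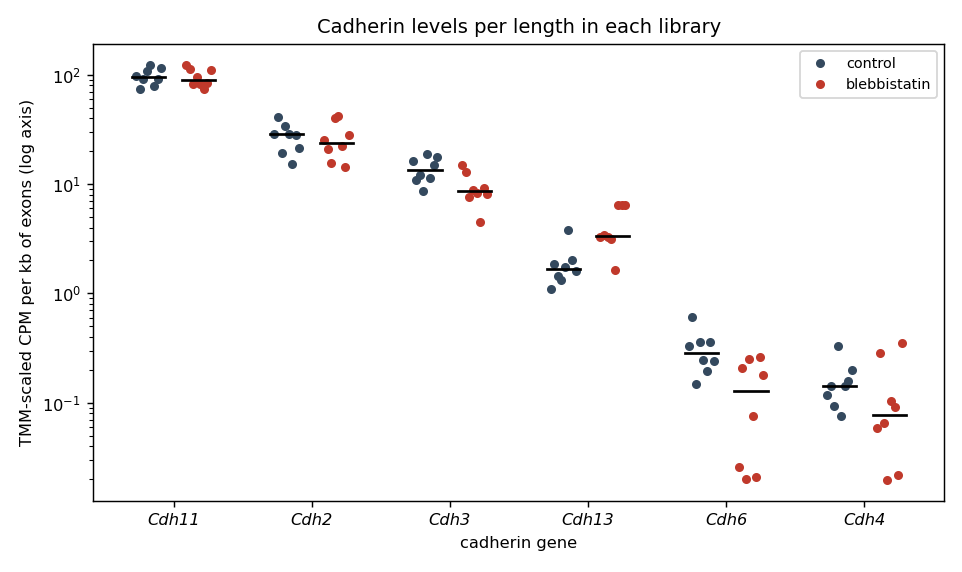
TMM-scaled CPM per kilobase of exons, on a log axis, of 6 cadherins in each of 8 control and 8 blebbistatin libraries, with a line at the median. Cdh11 and Cdh2 lie at the same height in both groups within their spread, and most treated points of Cdh13 lie above most control points.

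Cdh13 showed the smallest p of all 35 genes and was the cadherin with higher values in treated explants. It covers 118283733 to 119324921 of chromosome 8 (GRCm38) and stood at 18.3, 37.8 and 72.8 CPM in the lowest, median and highest treated library. In controls the corresponding levels were 12.2, 18.8 and 42.3 CPM. The groups overlapped through blebbistatin 5, at 18.3 CPM, and control 6, at 42.3 CPM, and 7 of 8 treated libraries lay above the control median. Its log2 fold change was 1.20 (SE 0.28, 95% interval 0.60 to 1.79), a ratio of 2.29, which did not pass edgeR (adjusted p = 0.0555). Leaving out control 6 gave an adjusted p of 0.0101, leaving out blebbistatin 5 one of 0.0195, a macrophage covariate one of 0.0196 and DESeq2 one of 0.00285. Over all alternatives its adjusted p ran from 0.00285 to 0.482. The 3 treated libraries highest for Cdh13, blebbistatin 6, 7 and 8, held 71.5 to 72.8 CPM. The summed level of cardiomyocyte markers, with a median of 1020 unscaled CPM in treated and 601 in control libraries, was 1010, 1030 and 1120 in those 3. It was 1240 in blebbistatin 4 and 1050 in blebbistatin 5, where Cdh13 stood at 35.3 and 18.3 CPM. Among controls it was 1020 in control 6, the highest for both, and 1010 in control 2, where Cdh13 stood at 21.0 CPM. Most of that sum was 1 gene, Tnnt2, at 572 to 1030 CPM in treated and 334 to 851 CPM in control libraries, while Myl7 had medians of 71.6 and 102 CPM and Tnni1 of 48.8 and 46.9 CPM. With that sum as a covariate, chosen after seeing the data, the log2 fold change of Cdh13 was 0.76 (adjusted p = 0.482), and with the mitochondrial share as a covariate it was 1.20 (adjusted p = 0.426).

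Cdh3 lay lower in most treated explants, at 19.6, 37.6 and 65.5 CPM in the lowest, median and highest library, against 37.8, 58.8 and 81.9 CPM in controls. Only blebbistatin 1, at 65.5 CPM, lay above the control median, and the ranges overlapped. The log2 fold change was -0.56 (SE 0.21, 95% interval -1.0 to -0.13), which did not pass edgeR (adjusted p = 0.253). With the keratin covariate it was -0.19 (adjusted p = 0.776) and with the cardiomyocyte covariate -0.32 (adjusted p = 0.756). Cdh6, a cadherin of kidney and neural crest, was near the lower limit of measurement, at 0.181, 1.15 and 2.36 CPM in treated libraries and 1.36, 2.59 and 5.53 CPM in controls. No treated library lay above the control median of Cdh6, and the fewest counts were 4, in blebbistatin 6. Its log2 fold change of -1.26 (SE 0.55) did not pass edgeR (adjusted p = 0.350). Cdh4 stood at 0.143 to 2.54 CPM in treated libraries and 0.553 to 2.40 CPM in controls (log2 fold change -0.32, adjusted p = 0.860), and its value ran from -0.74 without blebbistatin 8 to -0.08 without control 4.

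A switch between cadherins cannot be read from the 2 abundant ones, Cdh2 and Cdh11, without a cadherin of epithelia such as Cdh3. Cdh2 stood at 116, 192 and 338 CPM in the lowest, median and highest treated library and at 123, 229 and 332 CPM in controls. Cdh11 stood at 659, 797 and 1090 CPM and at 657, 838 and 1090 CPM. Both ranges overlapped nearly whole, and the log2 fold changes were -0.05 (95% interval -0.53 to 0.42) for Cdh2 and -0.03 (95% interval -0.30 to 0.25) for Cdh11, with adjusted p-values of 0.946 and 0.953 in edgeR. These signs turned under some alternatives: Cdh2 ran from -0.18 to 0.06 and Cdh11 from -0.09 to 0.03 as single libraries were left out. Within a library, the log2 ratio of Cdh11 to Cdh2 in CPM was 1.10, 2.27 and 2.69 at its lowest, median and highest with blebbistatin and 0.98, 2.07 and 2.56 in controls. The log2 ratio of Cdh3 to Cdh2 was -3.22, -2.29 and -1.53 with blebbistatin and -2.84, -1.63 and -1.14 in controls, with 2 of 8 treated libraries above the control median. That of Cdh13 to Cdh2 was -4.21, -1.94 and -0.67 in treated libraries and -4.25, -3.44 and -1.54 in controls, with 7 of 8 above, and the ranges of all 3 ratios overlapped. As shares of the summed level per length of these 6 cadherins, Cdh11 made up 61.0 to 75.3% in treated and 57.5 to 73.6% in control libraries. Cdh3 made up 4.18 to 9.02% and 5.68 to 11.5%, and Cdh13 1.22 to 5.95% and 0.760 to 3.46%. The ratio of Cdh2 to Cdh1, the pair by which the switch is usually read, was not analysed here.

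Catenins link the tails of cadherins to actin. Of 5 genes here, afadin included, 0 passed edgeR or DESeq2 or limma voom. Of genes with an adjusted p in each, 0.606, 2.79 and 0.721% passed. An unadjusted p under 0.05 in edgeR was found for 0 of them, against 12.2% of all genes. Ctnnb1, for β-catenin, was the most abundant per length and stood at 238, 309 and 423 CPM in treated libraries and 239, 308 and 393 CPM in controls. Its log2 fold change was -0.02 (95% interval -0.31 to 0.28), a sign that turned under 10 of 29 alternatives. Ctnna1, for the α-catenin of epithelia, stood at 221, 289 and 417 CPM and at 262, 343 and 427 CPM (log2 fold change -0.22, 95% interval -0.50 to 0.05, adjusted p = 0.532). Ctnna2, the α-catenin of neurons, was low at 0.556, 1.37 and 4.34 CPM and 0.383, 0.714 and 2.80 CPM, with 7 of 8 treated libraries above the control median (log2 fold change 0.81, 95% interval -0.31 to 1.93, adjusted p = 0.588, and 0.51 without blebbistatin 8). Ctnnd1, for p120-catenin, which holds cadherins at the surface, stood at 34.1, 41.4 and 76.0 CPM and at 21.7, 40.8 and 65.6 CPM. Its highest treated library was blebbistatin 1, without which the log2 fold change of 0.10 became -0.05. Afdn, for afadin, which ties nectins to actin, gave -0.08 on the log2 scale (adjusted p = 0.882).

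Desmosomes tie cells to each other's intermediate filaments. All 3 of their genes had negative log2 fold changes, against 45.9% of all genes. Each 95% interval included 0, and with the keratin covariate the values of Jup and Pkp2 turned positive. Of the 3, 0 passed edgeR, DESeq2 or limma voom, against 0.606, 2.79 and 0.721% of genes with an adjusted p in each. An unadjusted p under 0.05 in edgeR was found for 0 of the 3, against 12.2% of all genes. Jup, for plakoglobin, which serves both desmosomes and adherens junctions, was the most abundant per length and stood at 139, 224 and 278 CPM in treated libraries and 188, 238 and 301 CPM in controls (log2 fold change -0.15, 95% interval -0.45 to 0.16, adjusted p = 0.736). Pkp2, for plakophilin 2, stood at 30.6, 42.4 and 55.5 CPM and at 38.4, 44.6 and 55.7 CPM (-0.08, 95% interval -0.38 to 0.21, adjusted p = 0.851). Dsp, for desmoplakin, which binds the filaments, ranged over 6.49-fold among treated libraries, from 8.42 through a median of 19.2 to 54.7 CPM. In controls it ranged over 2.57-fold, from 17.2 through 28.4 to 44.2 CPM. Its log2 fold change was -0.17 (95% interval -0.93 to 0.60, adjusted p = 0.888).

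**Figure D3:**
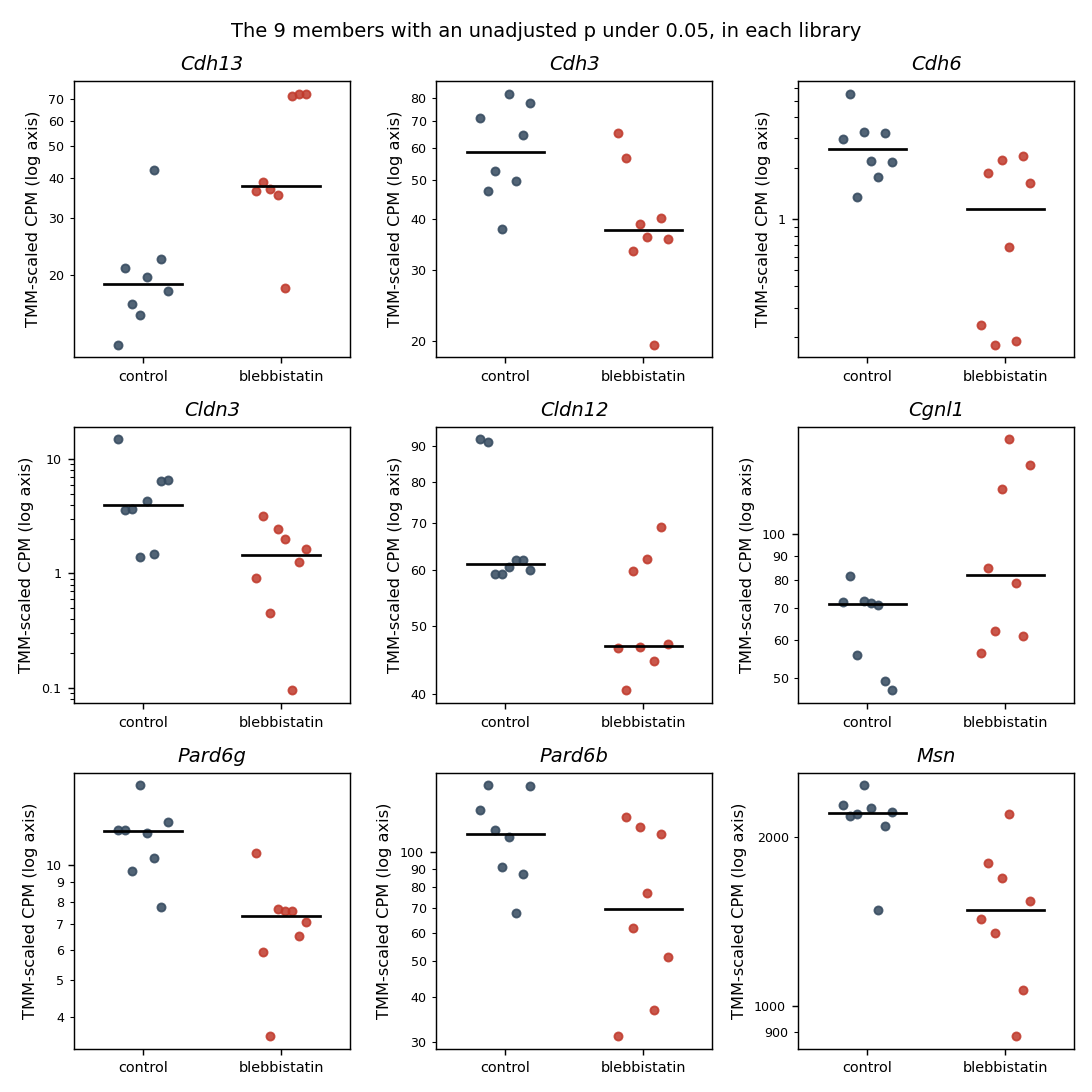
TMM-scaled CPM on log axes, each with its own range, of the 9 genes with an unadjusted p under 0.05, in each of 8 control and 8 blebbistatin libraries, with a line at the median. The groups overlap for all 9 genes, and no treated library lies above the control median for Cdh6, Cldn3, Pard6g or Msn.

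Claudins form the strands of tight junctions. All 5 genes of tight junction membrane proteins in the table had negative log2 fold changes, against 45.9% of all genes. Of the 5, 0 passed edgeR or limma voom, against 0.606 and 0.721% of all genes. An unadjusted p under 0.05 in edgeR was found for 2, against 12.2%, and 1, Cldn3, passed DESeq2, against 2.79%. Cldn3, a claudin that tightens the barrier (ENSMUSG00000070473, chromosome 5, 134986214 to 134987472), had no E-box match in its upstream window. The same held for other genes with a matched promoter, such as Tjp1 and Ezr. Cldn3 stood at 0.0946, 1.45 and 3.18 CPM in the lowest, median and highest treated library and at 1.40, 3.96 and 14.9 CPM in controls. All 8 treated libraries lay below the control median, though the ranges overlapped, and the lowest, blebbistatin 6, held 2 counts. Cldn3 had a log2 fold change of -1.81 (SE 0.56, 95% interval -2.99 to -0.64), which did not pass edgeR (adjusted p = 0.157). It passed DESeq2 (adjusted p = 0.0305) and not limma voom (adjusted p = 0.222). Control 1 was the highest control, and without it the value moved to the weakest found by leaving out a single library, -1.38. Keratins of simple epithelium, Krt8, Krt18 and Krt19, had log2 fold changes of -1.28, -1.41 and -1.33 and did not pass edgeR either (adjusted p = 0.285, 0.157 and 0.0593). Another, Krt7, the most abundant with a treated median of 65.4 CPM, had one of 0.22 (adjusted p = 0.802). With the summed level of these 4 as a covariate, chosen after seeing the data, the log2 fold change of Cldn3 was -0.93 (adjusted p = 0.680). Cldn3 overlaps Wbscr25 on the other strand. Reads of both cannot be told apart unless the libraries kept strand and counting used it. The strand setting of the counting is not recorded in the labels. Msn, Ezr and Cdh13 are among the other genes here that overlap a gene on the other strand.

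Cldn12, a claudin reported to let calcium pass, stood at 40.5, 46.9 and 69.0 CPM in treated libraries and 59.2, 61.2 and 91.9 CPM in controls. Its lowest control, at 59.2 CPM, lay above 5 of the treated libraries, and the log2 fold change of -0.39 (SE 0.14, 95% interval -0.69 to -0.09) did not pass edgeR (adjusted p = 0.248) and was -0.17 with the mitochondrial share as a covariate. F11r, for the junctional adhesion molecule JAM-A, was the most abundant of these genes per length, at 76.6 ± 32.9 in controls and 58.7 ± 32.8 with blebbistatin. In CPM it stood at 85.2, 128 and 344 with blebbistatin and 118, 171 and 351 in controls, and the highest libraries were blebbistatin 1 and controls 1 and 8 (log2 fold change -0.38, 95% interval -0.99 to 0.22, adjusted p = 0.647). The value was -0.66 without blebbistatin 1, -0.83 without both blebbistatin 1 and 8, and -0.23 without control 1. Cldn15, a claudin that lets cations pass, ranged from 11.8 to 49.4 CPM and from 21.1 to 51.7 CPM (-0.07, adjusted p = 0.942), a sign that turned without control 1 or 8 or blebbistatin 4 or 5. Cldn1, a claudin of skin and other tight barriers, lay at or below 3.25 CPM in each library and was at 0 counts in 2 treated ones (-1.0, 95% interval -2.92 to 0.92, adjusted p = 0.716). Its value was -2.36 without blebbistatin 4 and -0.54 without control 2.

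On the inner side of the tight junction, the 2 related scaffold genes Cgn and Cgnl1 had log2 fold changes of opposite sign. Cgnl1, for paracingulin, stood at 56.5, 81.9 and 157 CPM in treated libraries and 47.2, 71.6 and 81.6 CPM in controls. The 3 highest treated libraries, blebbistatin 4, 5 and 8, held 124 to 157 CPM, while the rest lay within or next to the control range. Cgnl1 had a log2 fold change of 0.55 (SE 0.21, 95% interval 0.12 to 0.99, adjusted p = 0.264 in edgeR), and 0.19 with the cardiomyocyte covariate. Cgn, for cingulin, stood at 5.09, 10.7 and 17.0 CPM and at 7.53, 15.3 and 22.8 CPM (-0.49, SE 0.27, 95% interval -1.05 to 0.06, adjusted p = 0.476). Both bind ZO-1, and the difference between their changes was not tested. Tjp1, for ZO-1 itself, was the most abundant scaffold per length and stood at 137, 182 and 273 CPM and at 127, 197 and 230 CPM (-0.02, 95% interval -0.30 to 0.26, adjusted p = 0.968). Its lowest control was control 6, at 127 CPM, with the next at 193 CPM.

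The Par and Crumbs complexes mark the apical side. Of their 6 genes here, 0 passed edgeR or limma voom, against 0.606 and 0.721% of all genes. An unadjusted p under 0.05 in edgeR was found for 2, against 12.2% of all genes, and 1 passed DESeq2, against 2.79%. Pard6g, for a form of PAR6, the adaptor that brings atypical protein kinase C to its partners, stood at 3.57, 7.33 and 10.7 CPM in treated libraries and 7.77, 12.2 and 16.1 CPM in controls. Only blebbistatin 1, at 10.7 CPM, lay above the lowest control. The log2 fold change was -0.72 (SE 0.22, 95% interval -1.18 to -0.27), with an adjusted p of 0.139 in edgeR, 0.0355 in DESeq2 and 0.0943 in limma voom. Pard6b, for another form and the more abundant per length of the pair (33.3 ± 9.07 against 3.71 ± 0.790 in controls), stood at 31.1, 69.6 and 125 CPM and at 67.8, 112 and 153 CPM. Treated libraries ranged over 4.04-fold and lay on both sides of the lowest control, with a log2 fold change of -0.56 (SE 0.27, 95% interval -1.12 to -0.01, adjusted p = 0.402), which was -0.29 with the keratin covariate. Pard3b, for a relative of PAR3, stood at 17.6, 32.8 and 45.1 CPM and at 19.0, 22.1 and 37.7 CPM, with 7 of 8 treated libraries above the control median (0.32, 95% interval -0.08 to 0.71, adjusted p = 0.537). Pard3 itself, the scaffold of the complex, gave -0.18 on the log2 scale (adjusted p = 0.781), Prkci, its kinase, one of -0.04 (adjusted p = 0.926) and Crb2, a Crumbs protein of the apical membrane, one of -0.15 (adjusted p = 0.784).

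The Scribble complex marks the basolateral side. None of its 3 genes passed edgeR, DESeq2 or limma voom, against 0.606, 2.79 and 0.721% of genes with an adjusted p in each. An unadjusted p under 0.05 in edgeR was found for 0 of the 3, against 12.2% of all genes. Dlg1 was the most abundant per length, at 64.3, 112 and 146 CPM in treated libraries and 101, 127 and 152 CPM in controls (log2 fold change -0.22, 95% interval -0.54 to 0.11, adjusted p = 0.632). Llgl1, which is held off the apical side by atypical protein kinase C, stood at 26.8, 30.6 and 48.8 CPM and at 18.6, 28.7 and 35.6 CPM (0.25, 95% interval -0.09 to 0.59, adjusted p = 0.582). Scrib stood at 8.89, 12.7 and 20.8 CPM and at 6.33, 11.5 and 17.5 CPM (0.20, 95% interval -0.30 to 0.70, adjusted p = 0.784).

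Ezrin, radixin and moesin tie the membrane to actin beneath it, and Msn, for moesin, was the most abundant per length of all 35 genes. Msn (ENSMUSG00000031207, chromosome X, 96096042 to 96168552) stood at 885, 1490 and 2200 CPM in the lowest, median and highest treated library. In controls it stood at 1480, 2210 and 2470 CPM. The controls lay close together, 7 of them at 2090 CPM or more, with control 6 apart at 1480 CPM, while each treated library was under the control median, blebbistatin 5 by little. This gave a log2 fold change of -0.52 (SE 0.16, 95% interval -0.85 to -0.19) and a ratio of 0.697, which did not pass edgeR (adjusted p = 0.144). It passed without blebbistatin 5 (adjusted p = 0.0481) and in DESeq2 (adjusted p = 0.047) but not in limma voom (adjusted p = 0.0987). Msn is X-linked, and Y-linked RNA was uneven between the groups. The summed unscaled CPM of 4 Y-linked genes had a median of 144 in treated and 7.08 in control libraries, with ranges of 6.04 to 180 and 3.81 to 177. These medians follow a split between explants. Of the 4, Ddx3y stood at 58.4 to 76.3 CPM in blebbistatin 1, 2, 3, 6 and 8. It stood at 86.7 and 55.2 CPM in control 4 and 5, and at or below 0.483 CPM in all other libraries. With the summed Y-linked level as a covariate the log2 fold change of Msn was -0.50 (adjusted p = 0.351 in edgeR). The split applies to all 35 genes, of which 0 passed edgeR with that covariate, as in the fit without it. With the covariate the log2 fold change was 1.16 for Cdh13 (adjusted p = 0.242 in edgeR). It was -1.34 for Cldn3 (adjusted p = 0.528) and -0.76 for Pard6g (adjusted p = 0.282).

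The other genes of this group did not pass edgeR, DESeq2 or limma voom. Of genes with an adjusted p in each, 0.606, 2.79 and 0.721% passed. Ezr, for ezrin, which is typical of epithelia, stood at 281, 517 and 793 CPM and at 355, 568 and 821 CPM (log2 fold change -0.22, 95% interval -0.64 to 0.21, adjusted p = 0.723). Rdx, for radixin, ranged from 98.4 to 180 CPM and from 83.4 to 175 CPM (0.01, 95% interval -0.30 to 0.32, adjusted p = 0.990), a sign that turned under 9 of 29 alternatives. Podxl, for podocalyxin, a charged apical protein that binds ezrin through an adaptor, varied most of the 4, from 1.47 through 7.63 to 18.9 CPM in treated libraries and from 1.43 through 12.2 to 22.1 CPM in controls. Its log2 fold change was -0.73 (95% interval -1.78 to 0.31, adjusted p = 0.601), and -0.05 with the keratin covariate.

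The 35 genes also differed between explants of 1 group. Between 8 controls the highest over the lowest value was 1.45-fold for Pkp2 and 19.1-fold for Cldn1, and it was 1.64-fold for Ctnnb1 and 15.5-fold for Podxl. Control 6 was the lowest control for 11 genes, among them Cdh2, Ctnna1, Ctnnd1, Jup, F11r, Tjp1, Ezr and Msn, and blebbistatin 3 and 6 were the lowest treated library for 9 and 8 genes. The summed level of macrophage and leukocyte markers was highest in control 6 among controls (4590 unscaled CPM) and highest in blebbistatin 3 (3830) and next in blebbistatin 6 (1790) among treated libraries, and that of epicardial and mesothelial markers was lowest in control 6 (2990), blebbistatin 6 (1980) and blebbistatin 3 (2540). Blebbistatin 1 was the highest treated library for 11 genes, among them Cdh3, Cdh11, Jup, F11r and Podxl, and held the highest sum of epicardial and mesothelial markers of the treated group (5730). The part of these marker levels in the differences between explants was not tested.

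**Figure D4:**
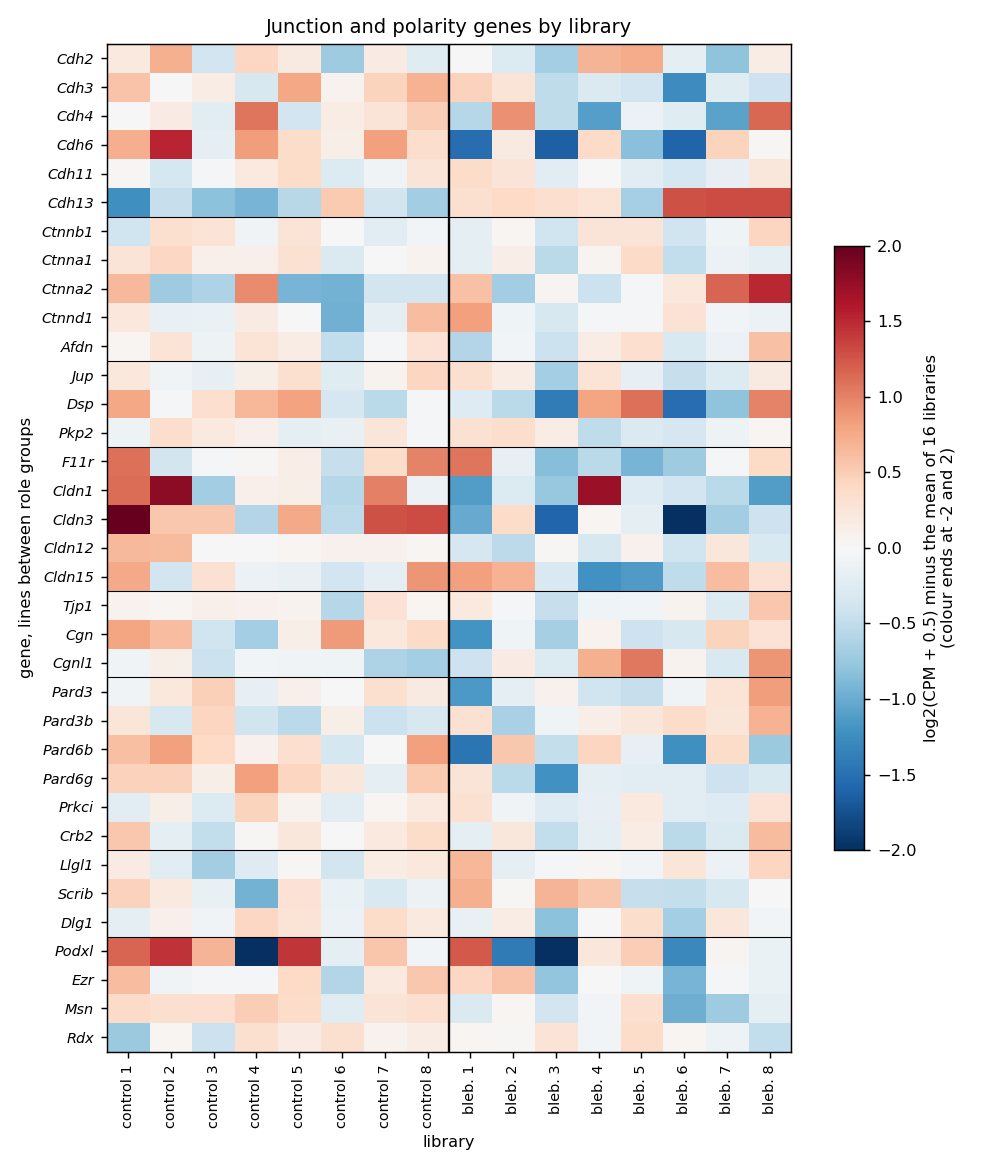
Level of each of the 35 genes in each library as log2(CPM + 0.5) minus the mean of the 16 libraries, with controls left and blebbistatin right of the line and role groups parted by lines. Control 6 and blebbistatin 3 and 6 are blue for many genes, and Cldn3 and Msn are mostly red in controls and blue in treated libraries.

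Other genes of junctions and polarity, from a list of 93 names of which 3 are second names, were tested in the same fit. Of 61 tested, 0 passed edgeR (0.606% of all genes) and 0 passed limma voom (0.721% of all genes). In edgeR 9 had an unadjusted p under 0.05, 4 higher and 5 lower, which is 14.8% against 12.2% of all genes. DESeq2 called 2, against 2.79% of the genes to which it gave an adjusted p. They were Pvr, lower (adjusted p = 0.00865), and Ctnnal1, higher (adjusted p = 0.0137). Pvr, for a nectin-like adhesion molecule, stood at 75.6 ± 22.8 CPM in treated libraries and 126 ± 27.7 CPM in controls (log2 fold change -0.73, SE 0.18, adjusted p = 0.0632 in edgeR), and passed edgeR without blebbistatin 5 or control 6. Ctnnal1, for α-catulin, a relative of the α-catenins, stood at 44.4 ± 9.37 and 25.6 ± 9.26 CPM (0.79, SE 0.21, adjusted p = 0.0768) and passed without control 6. The next higher by p were Cldnd1 (0.30), Ctnna3, for another α-catenin (1.03), and the planar polarity gene Vangl2 (0.75), with adjusted p-values of 0.264 to 0.276. The next lower were Cdh10 (-1.54), the junction scaffold Magi1 (-0.50) and the desmosome gene Perp (-0.81), with adjusted p-values of 0.236 to 0.286. The median log2 fold change of the 61 was -0.07, against 0.04 for all genes.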

How the data were processed

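The values used are raw counts, which the authors deposited as 1 table of genes by explants. The submitters' processing notes name edgeR, HTSeq 0.6.1p1, SAMtools 1.3, Bowtie2 2.2.6.0 and TopHat2 2.1.0, and build mm10 (GRCm38). Which annotation and strand setting were used is not stated in the labels. Libraries were amplified with an Ovation kit and made with Nextera XT, per the labels' protocols. Each gene in the deposited counts exceeded 1 CPM in at least 4 libraries, as tested on the table. Of its identifiers 15665 matched GENCODE M21, which gave symbols, positions and exon lengths.

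Counts were filtered with filterByExpr (15675 genes left), scaled by TMM and tested with edgeR 4.0.16 (R 4.3.3) by the robust quasi-likelihood test, with group alone in the model and p-values adjusted by Benjamini-Hochberg over all tested genes, called at 0.05. Standard errors were the log2 fold change over the root of F, and 95% intervals used the fit's degrees of freedom, without adjustment over genes. DESeq2 1.42.0 and limma 3.58.1 (voom), other scalings, no filter, covariates, a replicate block and leaving out each library were the alternatives. The fit was checked on simulated data with known changes. At the shallowest library 1 CPM stood for 20.2 counts. The closest pair of libraries in 1 group had a chi-square over its degrees of freedom of 48.9. The genes and lists were chosen with earlier results of these data known. Values were given in full for the 3 members of smallest p and the most abundant per length in each role group, and for Cdh2 and some other members besides. Of the other junction genes the 4 of smallest p in each direction were named.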

Additional observations from a re-analysis of the deposited data

Results flagged for a closer look

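A library stood apart from the other 7 of its group for 7 of 70 combinations of gene and group. The measure was the gap to the nearest other library over the whole range of the group set against Dixon's critical value for 8 samples. Independent, normally distributed values pass it about 1 time in 20. The CPM values were not transformed and the combinations share libraries, so 7 of 70 cannot be judged against that rate. Control 6 stood apart 3 times, high for Cdh13 (42.3 CPM, next 22.5 CPM) and low for Tjp1 (127 CPM, next 193 CPM) and Msn (1480 CPM, next 2090 CPM). Control 1 was high for Cldn3 (14.9 CPM, next 6.51 CPM) and control 2 for Cdh6 (5.53 CPM, next 3.26 CPM). Blebbistatin 1 was high for Ctnnd1 (76.0 CPM, next 52.3 CPM) and blebbistatin 4 for Cldn1 (3.11 CPM, next 0.408 CPM).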

How the results depend on the processing

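Of 1015 log2 fold changes, 35 genes under 29 alternatives, 951 kept their sign and their side of the threshold, 54 changed sign (13 genes) and 10 passed where the edgeR fit did not (Cdh13, Cldn3, Pard6g and Msn). The log2 fold change was negative under every setting for 16 genes and positive for 6. Of the 35 genes, 4 were called with DESeq2, 1 with the macrophage covariate and 0 to 2 without single libraries (Cdh13 and Msn without blebbistatin 5, Cdh13 without control 6). Of all genes, 412 were called with DESeq2, 265 with the macrophage covariate, 22 with the Y-linked covariate and 1 with the mitochondrial share. With 2 covariates added after seeing the data, 19 were called with the epicardial keratins and 0 by edgeR with the cardiomyocyte markers (1443 at an unadjusted p under 0.05). Without single libraries there were 44 to 206: 180 and 206 without blebbistatin 5 and control 6, 49 and 62 without blebbistatin 6 and 8, and 60, 58, 52, 44 and 54 without control 1, 2, 4, 7 and 8. Without both blebbistatin 1 and 8, the libraries with least genes detected, 65 were called, and 0 of the 35. Of the other junction genes, 2 were called with DESeq2, 1 with library totals alone, 1 with the macrophage covariate and 0 to 2 without single libraries.

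With the replicate number as a block, edgeR called 177 genes, 2 of the 35 (Cdh13, adjusted p = 0.0296, and Msn, adjusted p = 0.0389) and 1 of the other junction genes. Same-numbered libraries correlated by 0.004 to 0.279 in their deviations from the group means, and 4 of the 8 correlations were over 0.1. Of 8 treated libraries, 2 correlated best with their own number. Whether a shared number marks a pair was not tested, and these values cannot settle it. The labels give no pairing, so the main fit has none.

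Signs turned as follows. Without single libraries the log2 fold change ran from -0.18 to 0.0596 for Cdh2, -0.0902 to 0.0302 for Cdh11, -0.0903 to 0.0359 for Ctnnb1, -0.0478 to 0.21 for Ctnnd1, -0.22 to 0.0664 for Cldn15, -0.12 to 0.0368 for Tjp1, -0.0949 to 0.0271 for Prkci and -0.0822 to 0.065 for Rdx. With the Y-linked covariate it was 0.0043 for Cdh2, 0.0089 for Ctnnb1 and -0.0294 for Rdx, with the mitochondrial share 0.0597 for Ctnnb1 and -0.15 for Ctnnd1, and without both blebbistatin 1 and 8 -0.0366 for Ctnnd1. With the cardiomyocyte covariate it was 0.14 for Cdh11, 0.0255 for Pkp2, 0.29 for F11r, 0.56 for Cldn15, 0.11 for Tjp1, 0.0013 for Prkci, 0.13 for Ezr and -0.16 for Rdx. With the keratin covariate it was 0.14 for Cdh11 and Ezr, 0.0608 for Ctnnb1, 0.0585 for F11r, 0.0739 for Jup, 0.0041 for Pkp2, 0.29 for Cldn15, 0.0903 for Tjp1, 0.0409 for Crb2 and -0.14 for Rdx. The causes were not tested. The ratio of Cdh11 to Cdh2 per length, taken in each control library and then averaged, was 3.89, and 3.68 with the longest transcript as length. Depth limits Cdh4, Cdh6, Cldn1 and Cldn3, whose fewest counts in a library were 3, 4, 0 and 2.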
